A study of Mus musculus with 12 samples.

Results

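Klk14, Lipn, Pygm, Ahsg and 2210407C18Rik are 5 genes, out of 16385 in the expression table, that were picked by name because their mRNA was higher in AtT-20 cells expressing Pax7 Q-GL- than in cells expressing Pax7 Q-GL+ or Pax3, by a wide margin for all but Ahsg, and because the named ones are known mainly from tissues other than the pituitary. AtT-20 is a mouse corticotrope tumour line, here the D16v-F2 subline, in which introduced Pax7 switches on genes of the melanotrope, the other pituitary cell that makes Pomc. RNA-Seq libraries of 6 groups were used, with 2 libraries each: cells given the Pax7 isoform Q-GL-, cells given Pax7-465, a truncation after residue 465, cells given a Pax7 labelled NoTag, cells given the isoforms Q+GL+ or Q-GL+, and cells given Pax3. Q stands for a glutamine and GL for a glycine-leucine pair, both placed by alternative splicing within the paired domain, which binds DNA. By the study's methods the constructs were carried by a retrovirus, driven by a CMV promoter, tagged with Flag at both ends, and expressed in drug-selected pools of colonies, so a group is a mixed pool and not a clone. The study calls its deletion mutants Pax7 Q+GL- mutants, so Pax7-465 and Q+GL+ differ in GL as well as in the truncation. The NoTag title reads as a Pax7 without those tags, but the labels give neither its isoform nor any further detail of its construct, and cells without an introduced Pax factor were not analysed here, so the data give differences between factors and not a rise over untreated cells. Whether the label of an induced non-pituitary gene holds for any member was therefore not tested. Ahsg was abundant in every group, 2210407C18Rik was above 6 FPKM in every library, and Pygm was at 1 FPKM or more in all 12 libraries. FPKM, the unit used throughout, is a fragment number scaled by exon length and library size, so levels can be set side by side between genes.

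Pax7 is a transcription factor with a paired domain and a homeodomain, and in the pituitary it acts as a pioneer that opens closed chromatin at melanotrope enhancers. Pax3 is its closest relative and has the same pair of DNA-binding domains. The named members come from unrelated families. Klk14 is a kallikrein-related serine peptidase of the outer skin, Lipn is an acid lipase of differentiating keratinocytes, Pygm is the muscle form of glycogen phosphorylase, which releases glucose units from glycogen, and Ahsg is fetuin-A, a plasma glycoprotein of the cystatin superfamily that the liver secretes and that keeps calcium phosphate from precipitating. For 2210407C18Rik no role is given in the sources used here.

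The members lie on 4 chromosomes of GRCm38. Klk14 (ENSMUSG00000044737) is at chr7:43690418-43695536 on the plus strand, within the kallikrein cluster. Lipn (ENSMUSG00000024770) is at chr19:34067358-34084918 and Pygm (ENSMUSG00000032648) at chr19:6384399-6398459, both on the plus strand. Ahsg (ENSMUSG00000022868) is at chr16:22891277-22899449 on the plus strand, and 2210407C18Rik (ENSMUSG00000037145) at chr11:58608204-58616075 on the minus strand. In the table, Klk14 overlaps 2310002F09Rik on the opposite strand, and the other 4 members overlap no gene there.

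The proximal promoters of the 5 genes are shown so that the short DNA cores bound by Pax domains can be looked for near the start of transcription. Each window runs in transcript direction from 250 bases before to 50 bases after the RefSeq start in GRCm38.p6. They are chr7:43690168-43690467 for Klk14, chr19:34067108-34067407 for Lipn, chr11:58613443-58613742 on the minus strand for 2210407C18Rik, chr19:6384158-6384457 for Pygm and chr16:22891765-22892064 for Ahsg, and all 5 members matched by symbol. Capitals mark the homeodomain core TAAT, the paired-domain core GTCAC and the T-box core GGTGTG (the core of the corticotrope factor Tbx19), each searched on both strands, so that ATTA, GTGAC and CACACC are the same cores on the other strand. No match overlapped another.
Klk14: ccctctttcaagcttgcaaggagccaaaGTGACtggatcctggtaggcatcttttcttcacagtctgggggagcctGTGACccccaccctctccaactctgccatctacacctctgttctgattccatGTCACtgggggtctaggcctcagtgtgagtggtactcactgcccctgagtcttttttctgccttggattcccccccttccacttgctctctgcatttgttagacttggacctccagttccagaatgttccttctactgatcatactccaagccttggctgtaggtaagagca
Lipn: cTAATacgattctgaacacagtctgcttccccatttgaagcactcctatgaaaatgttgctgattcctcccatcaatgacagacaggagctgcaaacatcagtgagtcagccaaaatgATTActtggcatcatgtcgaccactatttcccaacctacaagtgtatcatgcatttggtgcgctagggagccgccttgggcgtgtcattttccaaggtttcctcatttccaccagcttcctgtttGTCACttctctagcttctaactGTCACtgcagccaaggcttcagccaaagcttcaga
2210407C18Rik: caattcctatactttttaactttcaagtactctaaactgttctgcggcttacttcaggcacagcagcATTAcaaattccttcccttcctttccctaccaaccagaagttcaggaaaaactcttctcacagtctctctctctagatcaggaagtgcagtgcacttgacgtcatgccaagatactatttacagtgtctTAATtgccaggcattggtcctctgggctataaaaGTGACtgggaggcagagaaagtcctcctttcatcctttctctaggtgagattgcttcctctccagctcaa
Pygm: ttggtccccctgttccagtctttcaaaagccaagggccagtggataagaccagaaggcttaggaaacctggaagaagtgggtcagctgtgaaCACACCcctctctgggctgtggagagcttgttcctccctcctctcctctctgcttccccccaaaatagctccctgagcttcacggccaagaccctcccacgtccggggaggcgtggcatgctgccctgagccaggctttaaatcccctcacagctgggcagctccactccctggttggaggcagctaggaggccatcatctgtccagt
Ahsg: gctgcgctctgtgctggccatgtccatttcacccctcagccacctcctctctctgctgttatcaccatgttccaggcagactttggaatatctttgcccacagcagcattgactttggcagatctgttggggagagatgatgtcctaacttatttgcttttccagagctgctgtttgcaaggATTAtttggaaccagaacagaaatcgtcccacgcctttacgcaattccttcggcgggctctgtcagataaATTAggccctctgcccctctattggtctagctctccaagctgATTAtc

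The paired-domain core GTCAC stood 3 times in the Klk14 window, at 222, 174 and 122 bases before the start. In the Lipn window it stood 7 bases before and 15 bases after the start, and in the 2210407C18Rik window 20 bases before it. Neither the Pygm nor the Ahsg window held it. TAAT stood 2 times in the Lipn window, 3 times in the Ahsg window and 2 times in the 2210407C18Rik window, and GGTGTG 1 time in the Pygm window. Of all 32851 promoter windows of the same length, 45.6% held GTCAC, 58.0% held TAAT and 19.0% held GGTGTG, while the palindrome of TAAT and ATTA with 2 bases between, which stood in 0 of the 5 members, was in 0.390%. The matches are letters in a window and not sites. For Klk14 and Lipn the RefSeq start is the first base of the gene in the table, for Pygm it is 9 bases away, for Ahsg 738 bases and for 2210407C18Rik 2583 bases inside the gene, so these last windows may not hold the start used in AtT-20 cells.

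Before the levels are given, the NoTag libraries have to be set apart. Their summed FPKM was between 627305 and 666609, against 413794 to 483161 in the other 10 libraries, 634 to 651 genes were listed at 0 in them against 1355 to 1407, and 733 genes were above 0 in both NoTag libraries and at 0 in all others. The 5 most abundant genes took 26.0% to 27.5% of the summed FPKM in NoTag libraries and 12.7% to 16.6% in the others. Pax7 mRNA averaged 94.6 FPKM in Q-GL-, 111 in Pax7-465, 158 in NoTag, 101 in Q+GL+ and 103 in Q-GL+ cells, and 0.160 in Pax3 cells. The corticotrope factor Tbx19 averaged 116 to 141 FPKM and Pomc 5767 to 10613 FPKM over the 6 groups. No gene with values here was named Pax3, so the Pax3 label was checked only by the low Pax7 level.

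Klk14 was one of the members with the widest range. It was at 9.37 and 9.94 FPKM with Q-GL-, 3.51 and 2.27 FPKM with Pax7-465 and 11.6 and 11.7 FPKM with NoTag. It was at 0.601 and 0.905 FPKM with Q+GL+, 0.759 and 1.25 FPKM with Q-GL+, and 0.272 and 0.360 FPKM with Pax3. The order was NoTag, Q-GL-, Pax7-465, Q-GL+, Q+GL+ and Pax3, and of these neighbours only the libraries of Q-GL+ and Q+GL+ cells overlapped. In bulk RNA, a change in the share of cells that express a gene cannot be told apart from a change in RNA per cell. Low FPKM values lie at whole steps, and if 1 step is 1 count, Klk14 rested on 229 and 224 counts in Q-GL- cells and on 6 and 8 counts in Pax3 cells, so the Pax3 level is known only roughly.

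Lipn had the highest level in Q-GL- cells, at 9.05 and 8.39 FPKM. Its values were 3.84 and 3.96 FPKM with Pax7-465, 3.31 and 3.62 FPKM with NoTag and 0.434 and 0.503 FPKM with Q+GL+. They were 1.14 and 0.950 FPKM with Q-GL+ and 0.410 and 0.205 FPKM with Pax3. No pair of neighbouring groups in this order of Q-GL-, Pax7-465, NoTag, Q-GL+, Q+GL+ and Pax3 overlapped. Unlike Klk14, Lipn was higher in Q-GL- than in NoTag libraries, with 8.72 FPKM on average in Q-GL- cells and 3.47 FPKM with NoTag. On the same steps Lipn rested on 343 and 294 counts in Q-GL- cells and 14 and 7 counts in Pax3 cells.

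Pygm was at 6.41 and 7.95 FPKM with Q-GL-, 1.83 and 1.42 FPKM with Pax7-465 and 6.29 and 6.55 FPKM with NoTag. In Q+GL+ cells it was at 1.06 and 1.58 FPKM, in Q-GL+ cells at 1.05 and 1.65 FPKM, and in Pax3 cells at 1.91 and 2.06 FPKM. The Q-GL- and NoTag libraries overlapped each other and stood above all others. Pax3 cells came next, above Pax7-465, Q-GL+ and Q+GL+ cells, whose libraries overlapped. Pygm is thus the one member that was not lowest in Pax3 cells.

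Ahsg, by far the most abundant member, was at 447 and 437 FPKM with Q-GL-, 322 and 352 FPKM with Pax7-465 and 271 and 259 FPKM with NoTag. It was at 294 and 293 FPKM with Q+GL+, 290 and 274 FPKM with Q-GL+, and 220 and 262 FPKM with Pax3. Ahsg differed between groups by a small factor over a high level, and it was the one member whose NoTag level lay below those of Q+GL+ and Q-GL+ cells. The NoTag and Pax3 libraries overlapped, and no other neighbours in its order of Q-GL-, Pax7-465, Q+GL+, Q-GL+, NoTag and Pax3 did.

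2210407C18Rik was at 43.8 and 40.7 FPKM with Q-GL-, 25.4 and 26.4 FPKM with Pax7-465 and 42.9 and 39.2 FPKM with NoTag. Its values were 10.8 and 13.9 FPKM with Q+GL+, 15.5 and 14.0 FPKM with Q-GL+, and 6.72 and 8.05 FPKM with Pax3. The Q-GL- and NoTag libraries overlapped at the top, with Pax7-465 cells between them and the rest. The order below was Q-GL+, Q+GL+ and Pax3, with no overlap between neighbours.

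**Figure D1:**
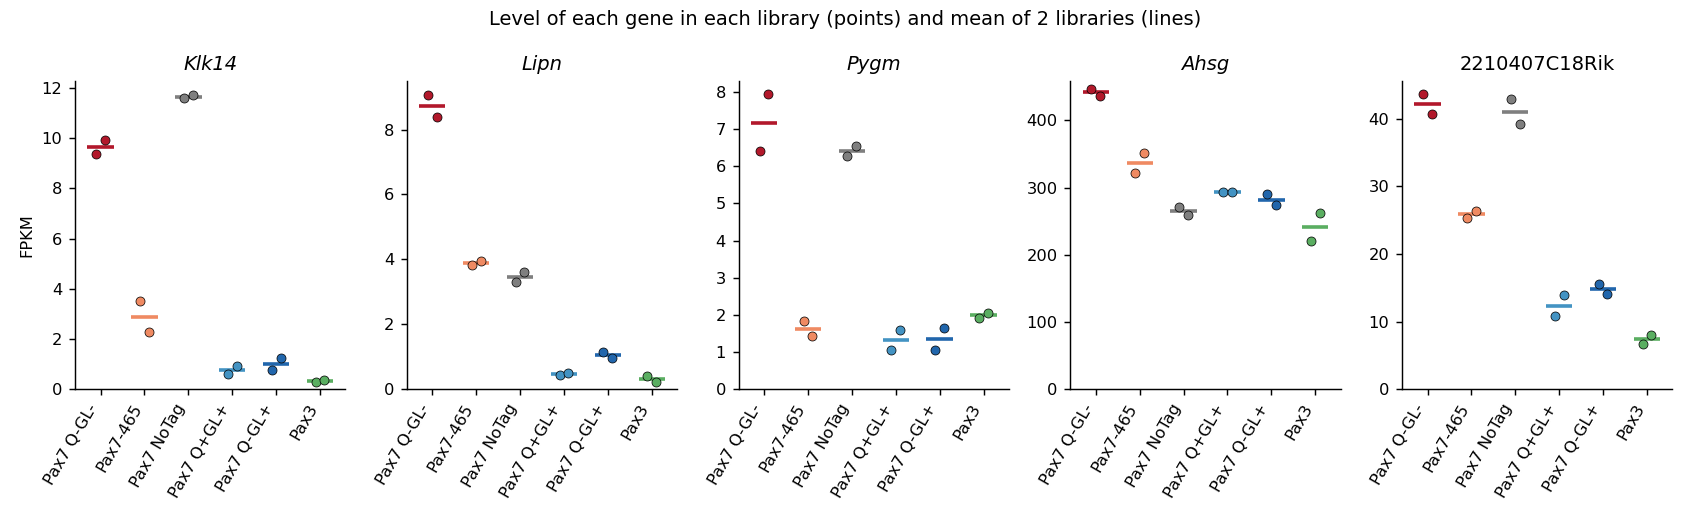
FPKM on a linear axis from 0 for each of the 5 genes in each library (points) with the mean of the 2 libraries of a group (lines), the groups running from Pax7 Q-GL- on the left to Pax3 on the right. Q-GL- libraries are the highest or share the top with NoTag for all genes but Klk14, for which they are at 9.37 and 9.94 FPKM, below the NoTag libraries at 11.6 and 11.7 FPKM.

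The contrasts that chose the members are given as a description, with no test. From Q-GL- over Q-GL+ cells the ratio of mean FPKM was 9.61 for Klk14, 8.34 for Lipn, 5.31 for Pygm, 1.57 for Ahsg and 2.86 for 2210407C18Rik. From Q-GL- over Pax3 cells it was 30.6 for Klk14, 28.4 for Lipn, 3.62 for Pygm, 1.83 for Ahsg and 5.72 for 2210407C18Rik. Fold changes in what follows are differences of log2(FPKM + 1), which understate the change of low genes. On that scale and among 12578 genes tested, the members ranked 6 (Klk14), 7 (Lipn), 12 (Pygm), 21 (2210407C18Rik) and 156 (Ahsg) for Q-GL- over Q-GL+ cells. They ranked 5 (Klk14), 6 (Lipn), 10 (2210407C18Rik), 28 (Pygm) and 83 (Ahsg) for Q-GL- over Pax3 cells. In Q-GL- cells 3.06% of all genes were called higher than in Q-GL+ cells and 3.62% higher than in Pax3 cells, at an adjusted p under 0.05 from limma. The rule gave no threshold, so no nearest gene outside it can be named. All 5 members passed the filter of 1 FPKM in 2 libraries, Pygm, Ahsg and 2210407C18Rik in all 12 libraries, but Klk14 and Lipn in 7, with both libraries of a group only in Q-GL-, Pax7-465 and NoTag cells.

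Pax7-465, NoTag and Q+GL+ cells were not named in the rule that chose the members, so these 3 groups were compared by tests. Pax7-465 is a GL- form, however, so Pax7-465 over Q+GL+ cells repeats the GL contrast of the rule and gives no support from outside it. The isoform of NoTag is not given, so the same may hold for NoTag over Q+GL+ cells. The genes were still chosen with earlier results of these data known. Among these 3 groups Klk14 and Lipn reached 1 FPKM in both libraries only in Pax7-465 and NoTag cells. The tests are therefore not fully independent of the choice. The 3 comparisons between them share libraries and are not independent of each other. Separate cultures are not stated for the 2 libraries of a group, which the methods name biological replicates. A p-value therefore measures only the spread between libraries of a group, estimated over all 12 libraries together. It does not measure the spread between separately made pools of cells.

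In Pax7-465 cells, Klk14, Lipn and 2210407C18Rik were higher than in Q+GL+ cells, while Pygm and Ahsg did not pass the test. That is 3 of 5 members higher and 0 lower, where 0.867% of all 12578 genes were called higher and 0.461% lower. This count, like the one for NoTag cells below, includes Klk14 and Lipn, which reached 1 FPKM in both libraries only in groups where they were high. It is a description and not support from outside the choice. At an unadjusted p under 0.05 from limma the members' counts were the same, where 750 of all genes were higher and 903 lower. Lipn averaged 3.90 FPKM with Pax7-465 and 0.468 FPKM with Q+GL+, a log2 fold change of 1.74 ± 0.12 (SE from limma, adjusted p = 2.9e-05), and it ranked 6 of all genes tested. Klk14 averaged 2.89 FPKM with Pax7-465 and 0.753 FPKM with Q+GL+, a log2 fold change of 1.14 ± 0.16 (SE from limma, adjusted p = 0.0053). Without the first Q+GL+ library the Klk14 value was 1.01 and the adjusted p of limma was 0.055, so this call rests on that library. For 2210407C18Rik the means were 25.9 FPKM with Pax7-465 and 12.3 FPKM with Q+GL+, with a log2 fold change of 1.02 ± 0.12 (SE from limma, adjusted p = 9.3e-04).

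The values of the other members in the same comparison were small. Pygm had a log2 fold change of 0.18 ± 0.16 (SE from limma, adjusted p = 0.69), and its libraries overlapped between Pax7-465 and Q+GL+ cells. Ahsg was at 0.20 ± 0.092 (SE from limma, adjusted p = 0.39), although both Pax7-465 libraries were above both Q+GL+ libraries, and after quantile normalization it was called, at 0.22 with an adjusted p of 0.025 from limma. The median over the 5 members was 1.02, against -0.0091 over all genes tested. Pax7 mRNA itself differed by 0.13 on the log2 scale between Pax7-465 and Q+GL+ cells, with an adjusted p of 0.39 from limma. FPKM is scaled by the exon length of the gene, so it may understate the Pax7 mRNA of a truncated construct.

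In NoTag cells, all members but Ahsg were higher than in Q+GL+ cells. The count of 4 of 5 higher and 0 lower has to be read against a background of 36.9% of all genes called higher and 9.02% lower, with a median of 0.18 over all genes on the log2 scale. After median centring 2714 genes were higher and 2669 lower, in place of 4646 and 1135. Klk14 averaged 11.7 FPKM with NoTag and 0.753 FPKM with Q+GL+, a log2 fold change of 2.86 (adjusted p = 7.7e-08, limma), the 36th of 12578 when ranked. Pygm averaged 6.42 FPKM with NoTag and 1.32 FPKM with Q+GL+, and its log2 fold change was 1.69 (adjusted p = 5.2e-06, limma). The log2 fold change was 1.60 for Lipn (adjusted p = 6.9e-07, limma) and 1.67 for 2210407C18Rik (adjusted p = 4.3e-07, limma). Each of these 4 calls also held after median centring and after quantile normalization of the libraries.

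Ahsg went the other way in NoTag cells, at -0.15 on the log2 scale with an adjusted p of 0.21 from limma. With the libraries centred on their medians it was called lower, at -0.33 (adjusted p = 0.0031, limma), and after quantile normalization at -0.40 (adjusted p = 5.0e-05, limma), so the call for Ahsg depends on the scaling of the NoTag libraries. Pax7 mRNA was higher in NoTag than in Q+GL+ cells by 0.64 on the log2 scale (adjusted p = 9.0e-06, limma), and its part in these differences was not tested.

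Between Pax7-465 and NoTag cells the members split. Klk14, Pygm and 2210407C18Rik were lower in Pax7-465 cells, where 37.9% of all genes were called lower and 7.94% higher. Klk14 had a log2 fold change of -1.72 (adjusted p = 6.7e-06, limma), Pygm of -1.51 (adjusted p = 1.5e-05, limma) and 2210407C18Rik of -0.64 (adjusted p = 8.1e-04, limma). Ahsg was higher in Pax7-465 cells, at 337 FPKM on average against 265 FPKM with NoTag and a log2 fold change of 0.34 (adjusted p = 0.0092, limma). The Ahsg call was lost without the second Pax7-465 library, at 0.28 with an adjusted p of 0.066, and without the second NoTag library, at 0.31 with an adjusted p of 0.068, both from limma. Lipn, at 3.90 FPKM with Pax7-465 and 3.47 FPKM with NoTag, did not pass, with a log2 fold change of 0.13 ± 0.12 (SE from limma, adjusted p = 0.38), but did after quantile normalization, at 0.33 with an adjusted p of 0.038. Thus the 5 genes did not keep one order over the groups, and the Pax7-465 and NoTag libraries ranked differently for Klk14 and Pygm than for Ahsg.

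**Figure D2:**
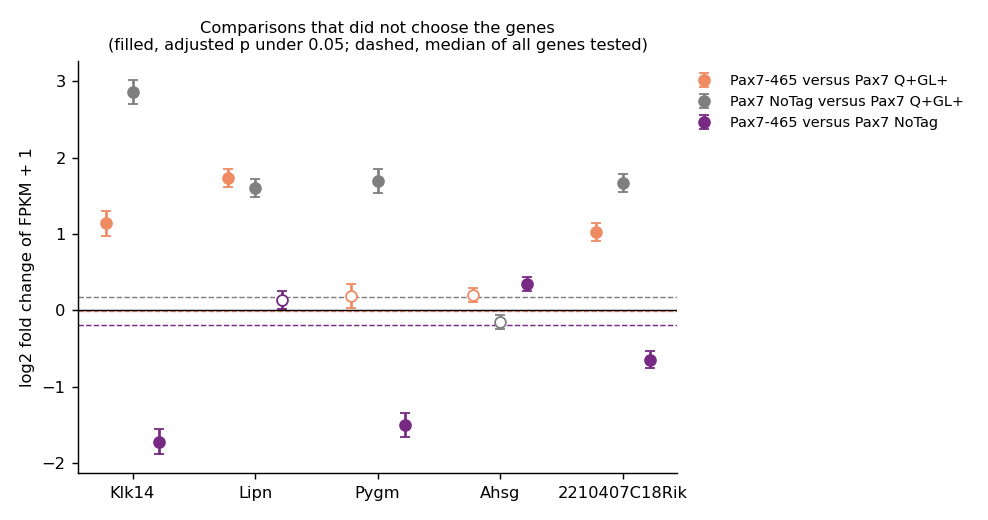
Log2 fold change of FPKM + 1 for each of the 5 genes in the 3 comparisons between groups not named in the rule that chose them. Pax7-465 over Q+GL+ cells still sets GL- against GL+, as the rule did. Bars are 1 standard error from limma, filled points mark an adjusted p under 0.05, and dashed lines are at the median of all 12578 genes tested. Pygm is near 0 in Pax7-465 over Q+GL+ cells, at 0.18, and at 1.69 in NoTag over Q+GL+ cells, while Lipn is at 1.74 and 1.60 in these comparisons.

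Families of the members were described from lists, with the members left out. Of 25 other kallikrein-related peptidases, 10 were in the table and 6 were tested, and 1 was higher and 0 lower in Pax7-465 than in Q+GL+ cells, against 2 higher after median centring and 3 after quantile normalization. The gene that rose without rescaling was Klk1, tissue kallikrein, at 236 FPKM with Pax7-465 and 158 FPKM with Q+GL+, with a log2 fold change of 0.57 (adjusted p = 0.022, limma), a call that was lost without any 1 of the 4 libraries, with adjusted p between 0.059 and 0.15. Klk11, 79.1 kb from Klk14 in the same cluster, had 0.43 (adjusted p = 0.059, limma) in that comparison, was called higher there after median centring (adjusted p = 0.026) and quantile normalization (adjusted p = 0.022), and was lower in NoTag than in Q+GL+ cells, at -0.39 (adjusted p = 0.0063, limma), where Klk14 was higher. That call was lost without the second NoTag library, at -0.33 with an adjusted p of 0.059. NoTag cells had 1 tested kallikrein higher and 1 lower, where 36.9% of all genes were called higher and 9.02% lower. After median centring 0 kallikreins were higher and 1 lower, where 2714 of all genes were higher and 2669 lower. Near-identical kallikrein copies can share reads, so the members of that cluster are uncertain to the extent that the counting split them.

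Pygm was higher with NoTag than with Q+GL+, and other genes of glycogen metabolism went both ways there. Of 26 listed, 18 were tested, and 0 were called by limma in Pax7-465 against Q+GL+ cells, with a median log2 fold change of -0.057. At an unadjusted p under 0.05 from limma, 2 were lower and 0 higher, where 903 of all 12578 genes were lower and 750 higher. With NoTag 6 were higher and 6 lower than with Q+GL+, where 36.9% of all genes were called higher and 9.02% lower. The split of the glycogen genes became 1 and 7 with the libraries centred on their medians, where 2714 of all genes were higher and 2669 lower. Pygb, the brain form of glycogen phosphorylase, averaged 33.0 FPKM with Q-GL-, 37.1 FPKM with NoTag and 38.2 FPKM with Q+GL+ and so stood above Pygm in each. Gys1, the muscle glycogen synthase, was lower in NoTag cells, at 16.4 FPKM against 29.3 FPKM with Q+GL+, with a log2 fold change of -0.80 (adjusted p = 2.0e-04, limma), while Pygm was higher there.

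In the cystatin superfamily, to which Ahsg belongs, 5 other genes were tested. Of these, 1 was higher in Pax7-465 than in Q+GL+ cells, where 0.867% of all genes were called higher, and the count became 2 after quantile normalization. Kng2, a kininogen gene, passed with 1.53 FPKM with Pax7-465 and 0.675 FPKM with Q+GL+, a log2 fold change of 0.59 (adjusted p = 0.039, limma), and it too was lost without any 1 of the 4 libraries, with adjusted p between 0.070 and 0.24. Fetub, which encodes fetuin-B and is the neighbour of Ahsg at 18.9 kb, averaged 100.4 FPKM in Q-GL-, 94.99 in Pax7-465, 84.4 in NoTag, 80.3 in Q+GL+, 76.8 in Q-GL+ and 66.7 in Pax3 cells. Fetub passed none of the 3 comparisons between Pax7-465, NoTag and Q+GL+ cells without rescaling. Its log2 fold changes were 0.24 (adjusted p = 0.25) for Pax7-465 over Q+GL+, 0.071 (adjusted p = 0.52) for NoTag over Q+GL+ and 0.17 (adjusted p = 0.13) for Pax7-465 over NoTag cells, all from limma. After quantile normalization Fetub was called higher in Pax7-465 than in Q+GL+ cells, at 0.26 (adjusted p = 0.031, limma). It was then also called lower in NoTag than in Q+GL+ cells, at -0.17 (adjusted p = 0.026, limma). Pax7-465 over NoTag cells had it called higher after median centring, at 0.36 (adjusted p = 0.0021, limma), and after quantile normalization, at 0.43 (adjusted p = 1.5e-04, limma). In NoTag cells 4 cystatin genes were higher than in Q+GL+ cells and 0 lower (3 and 1 after quantile normalization), where 36.9% of all genes were called higher and 9.02% lower. The cystatin gene with the largest log2 fold change, 3.55, was Cst6, cystatin E/M, at 33.4 FPKM with NoTag against 1.94 FPKM with Q+GL+. Of the 9 other genes listed for the acid lipase family of Lipn, 0 had values here under those names.

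Lists of genes typical of liver, skeletal muscle and epidermis had few genes in the table, and the summed levels of the listed genes were low in all groups. The hepatocyte list holds neither Ahsg, at 241 to 442 FPKM on average over the groups, nor Agt, described below, at 15.6 to 44.2 FPKM. Its sum therefore does not cover all genes of liver-secreted proteins. Of 19 hepatocyte genes 5 were in the table and 3 tested, with 0 called in Pax7-465 against Q+GL+ cells, and their summed level over all 12 libraries lay between 9.73 and 16.3 FPKM. Of 23 skeletal muscle genes 3 were tested and 0 called, with sums of 8.93 to 14.7 FPKM, and of 21 epidermal genes 4 were tested and 0 called, with sums of 17.0 to 22.1 FPKM. At an unadjusted p under 0.05 from limma, 1 epidermal gene was higher in Pax7-465 cells and 0 of the other tested genes of these lists passed. Over all 12578 genes tested, 750 were higher and 903 lower at that level. In NoTag cells 1 gene of each of these lists was higher than in Q+GL+ cells, namely Hp, Des and Krt10, and 0 were lower. Over all genes 36.9% were called higher and 9.02% lower in that comparison. Of these 3 genes only Krt10 was called after median centring. After quantile normalization Krt10 (adjusted p = 0.010, limma) and Des (adjusted p = 0.040, limma) were called, and Hp was not. The melanotrope list, by contrast, had 6 of 7 genes higher and 0 lower in Pax7-465 than in Q+GL+ cells, with a median of 0.90. Over all genes 0.867% were called higher and 0.461% lower there. In NoTag cells 7 of 7 were higher than in Q+GL+ cells, also after median centring. That list holds the introduced Pax7 and genes that the study named from such cells, so its direction is not independent evidence. Of 6 corticotrope genes tested, 0 were called by limma in Pax7-465 against Q+GL+ cells (at an unadjusted p under 0.05, 1 was higher and 1 lower). In NoTag cells 2 of them were higher than in Q+GL+ cells. This became 1 higher and 3 lower after median centring, where 2714 of all genes were higher and 2669 lower.

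Neighbours along the chromosome were compared with the members, taking the nearest 2 tested genes on each side. Of these 20 genes, 1 was higher and 0 lower in Pax7-465 than in Q+GL+ cells, where 0.867% of all genes were called higher and 0.461% lower. The median log2 fold change of the 20 was 0.015, and the one called was Kng2, 86.4 kb from Ahsg. The count was 2 higher after median centring, 3 after quantile normalization, with Klk11 and Fetub added, and 0 without any 1 of the 4 libraries (2 to 4 higher and 0 to 2 lower at an unadjusted p under 0.05, limma). With all 4 libraries, 4 of the 20 were higher and 1 lower at that unadjusted level, where 750 of all 12578 genes were higher and 903 lower. With NoTag 8 of the 20 were higher and 3 lower than with Q+GL+, where 36.9% of all genes were called higher and 9.02% lower. The median of these neighbours, 0.18, was near that of all genes. After median centring 4 were higher and 4 lower, where 2714 of all genes were higher and 2669 lower. The gene that overlaps Klk14 on the opposite strand, 2310002F09Rik, averaged 1.33 FPKM in Q-GL-, 1.11 in Pax7-465, 1.70 in NoTag, 1.09 in Q+GL+, 0.921 in Q-GL+ and 0.956 in Pax3 cells. Its log2 fold change in Pax7-465 over Q+GL+ cells was 0.020 (adjusted p = 0.99, limma), against 1.14 for Klk14. Reads were mapped by strand, but whether they were counted by strand is not given in the sources used here. The nearest tested neighbours of Lipn were 675 kb or more away, so its neighbourhood was hardly covered.

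**Figure D3:**
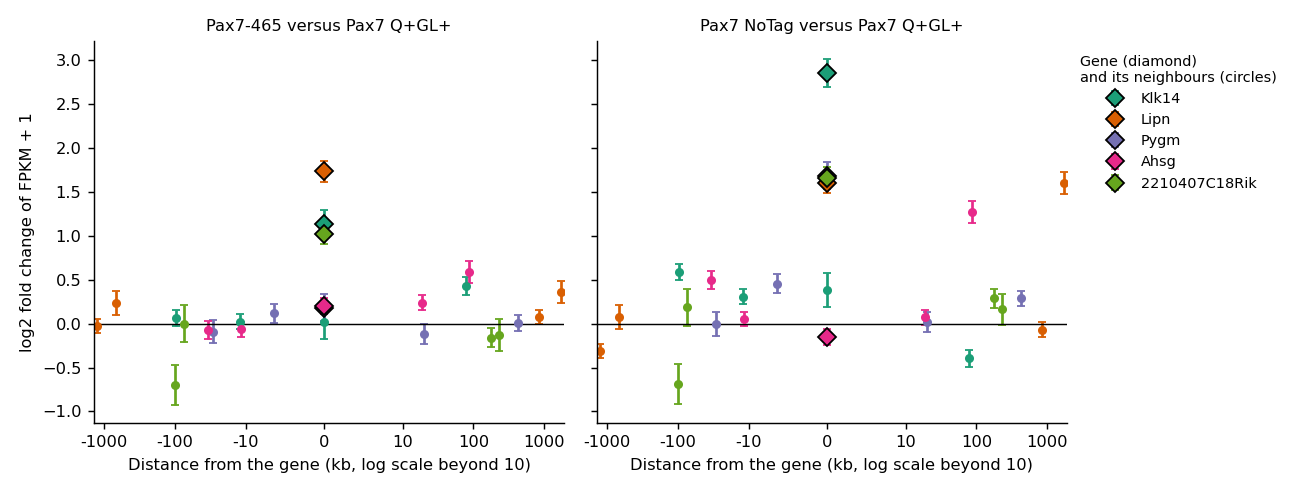
Log2 fold change of FPKM + 1 of each of the 5 genes (diamonds at 0) and of the 2 nearest tested genes on each side (circles) against distance in kb, with bars of 1 standard error, for Pax7-465 over Q+GL+ cells on the left and NoTag over Q+GL+ cells on the right. On the left 1 of 20 neighbours was called, Kng2 at 0.59, where 0.867% of all genes were called higher and 0.461% lower. On the right 8 were higher and 3 lower, where 36.9% of all genes were called higher and 9.02% lower.

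The members' profiles were alike over the 10 libraries other than NoTag, with Pearson r between 0.674 (Pygm with 2210407C18Rik) and 0.970 (Klk14 with Lipn) over the 10 pairs. With NoTag libraries added the range was 0.398 (Pygm with Ahsg) to 0.959 (Klk14 with 2210407C18Rik). These values describe genes that were chosen for a shared pattern and share libraries. Among 11448 other genes, the profiles nearest to the members' mean over the same 10 libraries were those of Agt (r = 0.989), Cpq (r = 0.982), Rgs4 (r = 0.980), Tspan15 (r = 0.977) and Apobec2 (r = 0.974). Agt encodes angiotensinogen, the plasma precursor of angiotensin that the liver secretes, Rgs4 a regulator of G-protein signalling, and Apobec2 a muscle member of the cytidine deaminase family. Cpq encodes a secreted carboxypeptidase and Tspan15 a tetraspanin of the cell membrane.

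Agt, the nearest of them, was at 45.2 and 43.3 FPKM with Q-GL-, 23.6 and 25.4 FPKM with Pax7-465 and 25.7 and 26.3 FPKM with NoTag. It was at 16.7 and 18.03 FPKM with Q+GL+, 21.2 and 19.6 FPKM with Q-GL+, and 15.2 and 16.0 FPKM with Pax3. As for Lipn, the Pax7-465 and NoTag libraries were well below those of Q-GL- cells and above the rest. Cpq averaged 35.0 FPKM with Q-GL- and 49.3 FPKM with NoTag, whose libraries the search did not use, and with these libraries added its r was 0.828 and that of Tspan15 0.735.

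**Figure D4:**
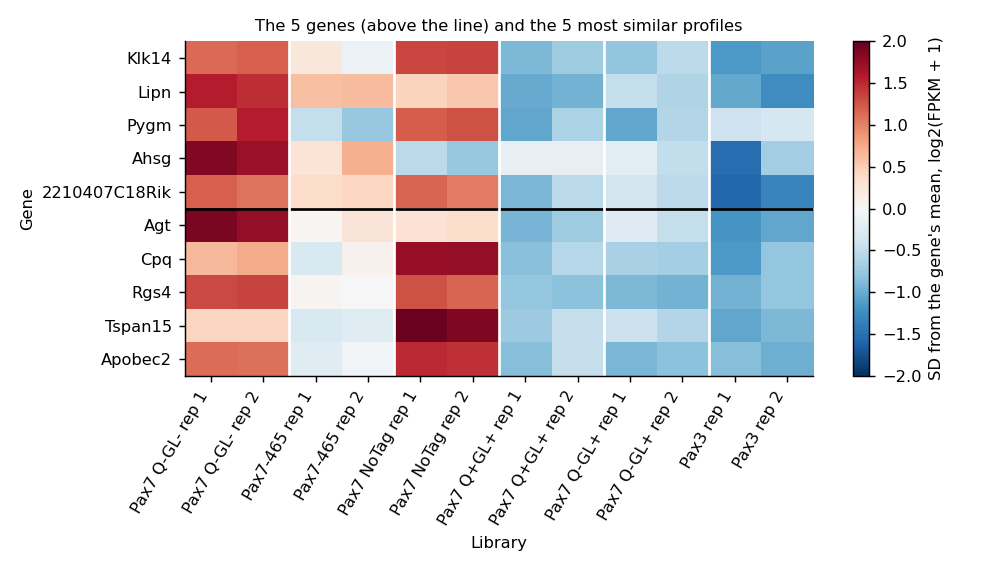
Level of the 5 genes (above the line) and of the 5 genes with the most similar profiles (below it) in each of the 12 libraries, as SDs of log2(FPKM + 1) from the gene's own mean, red above and blue below it. Q-GL- libraries are above the mean for all 10 genes, and NoTag libraries are above it for all but Ahsg.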

How the data were processed

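RNA-Seq of AtT-20 cells was read from 1 table of 16385 genes, and 12 libraries in 6 groups were used. Another 4 value columns were left out. The authors deposited FPKM. By their methods, reads of stranded paired-end libraries went through Trimmomatic, were aligned to GRCm38 by TopHat2 and were quantified per gene by HOMER. Each column is 1 library.

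Because FPKM are not counts, the 12578 genes reaching 1 FPKM in 2 or more libraries were taken as log2(FPKM + 1) and fitted in limma 3.58.1 (R 4.3.3, trend and robust options), with all 12 libraries and 1 coefficient per group, and adjusted p-values (Benjamini-Hochberg over all genes tested) under 0.05 were called. The table states no depth. Low FPKM of single-exon genes lay at whole steps (tolerance 0.05) for 95.3% to 98.9% of values, giving relative depths of 0.933 to 1.09. Counts derived from these steps cover counting error only.

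The 5 genes and all gene lists were chosen with earlier results of these data known. Besides the 5 genes, the text names the 5 genes with the highest Pearson r to their mean standardised profile, their 2 nearest tested genes on each side, up to 4 abundant and up to 4 called genes of each list, and Pax7, Pax3, Tbx19 and Pomc. Of the lists not described in the report, gut epithelial genes (2 tested) and leukocyte markers (1 tested) had 0 calls by limma in Pax7-465 against Q+GL+ cells (0 and 1 at an unadjusted p under 0.05), and of fibroblast and other pituitary hormone markers 0 genes were tested. Promoters are from RefSeq, GRCm38.p6. The fit was tested on simulated data with known changes before use. Alternatives were a pseudocount of 0.1, no filter, a filter of 5 FPKM, quantile normalization, limma without trend, only the groups compared, the libraries other than NoTag, a replicate block and each library left out. Median centring, and the rescaled and left-out counts of the lists, were chosen after seeing the data.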

Additional observations from a re-analysis of the deposited data

How the results depend on the processing

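No log2 fold change of the 5 genes changed direction under any alternative. Klk14, Pygm and 2210407C18Rik kept their calls in NoTag over Q+GL+ and in Pax7-465 over NoTag cells under each of the 12 alternatives, as did Lipn in NoTag over Q+GL+ cells, and Lipn and 2210407C18Rik in Pax7-465 over Q+GL+ cells under each of 13. The numbers of genes called in Pax7-465 over Q+GL+ cells were less stable. They were 109 higher and 58 lower, and became 225 and 184 after quantile normalization and 41 and 18 with only the groups compared. Median centring gave 105 lower, and leaving out 1 library gave 29 to 49 higher and 8 to 23 lower. For NoTag over Q+GL+ cells the 4646 higher and 1135 lower became 2636 and 2942 after quantile normalization and 2714 and 2669 after median centring. For Pax7-465 over NoTag cells, whose median log2 fold change was -0.19 over all genes, the 999 higher and 4766 lower became 2792 and 2500 after quantile normalization and 2438 and 2652 after median centring, and the cause was not tested. With a pseudocount of 0.1, the log2 fold changes of Q-GL- over Q-GL+ cells were 3.18 for Klk14, 2.95 for Lipn and 2.35 for Pygm. Over Pax3 cells they were 4.56 for Klk14, 4.48 for Lipn, 1.80 for Pygm and 2.50 for 2210407C18Rik. The replicate numbers did not pair the libraries (correlation of deviations from -0.16 to 0.17 over 15 pairs of groups, 2 of them over 0.1), and a fit with the replicate block gave 95 higher and 53 lower genes in Pax7-465 over Q+GL+ cells and changed no call of the 5 genes. With 2 libraries a group and Klk14 and Lipn below 1 FPKM in Q+GL+ and Pax3 cells, depth limits how closely their ratios are known.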
